A study of Mus musculus with 18 samples.

Results

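This account is of 10 receptors of the tumor necrosis factor (TNF) receptor superfamily in cultured splenic B cells, out of 16545 genes in the expression table. They form a list of gene names with no threshold on measured values, and all 10 were in the table: Tnfrsf13c (BAFF-R), Tnfrsf13b (TACI), Tnfrsf17 (BCMA), Cd40, Cd27, Fas, Tnfrsf1a (TNFR1), Tnfrsf1b (TNFR2), Tnfrsf9 (4-1BB) and Tnfrsf18 (GITR). The 18 RNA-seq libraries came from B cells of mice on a C57BL/6 background, before culture (D0) and after 1 or 2 days with LPS (D1, D2), with 3 libraries for each of the 6 groups of genotype and day. LPS, from the outer membrane of Gram-negative bacteria, stimulates B cells by way of TLR4. The deletion group (BKO) had the genotype Zbtb24 loxp/loxp with 1 Cre allele, in which Cre removes the Zbtb24 exon with the translation start, and the controls (CON) were littermates with the genotype Zbtb24 +/+. The deletion is meant for B lineage cells, and according to the methods both groups carry the Cre allele. The age of the mice was not given in the sources used here.

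Members of this superfamily are membrane receptors for trimeric ligands of the TNF family. Most signal by binding TRAF adaptors, which lead to the canonical NF-kB pathway, to the noncanonical pathway through the kinase NIK, and to MAP kinases. Some, such as FAS and TNFR1, carry a death domain and can start apoptosis. In B cells the best known are BAFF-R, which carries the survival signal of the cytokine BAFF, TACI and BCMA, which also bind APRIL, and CD40, which receives T cell help through CD40 ligand. TACI is known to rise on B cells after TLR stimulation, BCMA is typical of plasma cells, and FAS rises on activated B cells.

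Levels are given in FPKM, fragments scaled to the length of the transcript and to the total mapped in the library, so that they can be set side by side between genes. Differences are log2 fold changes of FPKM + 1 from limma, with the standard error (SE) and the p-value adjusted by the Benjamini-Hochberg method over all genes tested in that comparison, and a gene is called changed where the adjusted p was under 0.05. Differences on this scale understate those of genes below a few FPKM. Zbtb24 itself was at 45.4 ± 7.24 FPKM (SD, n = 3) in CON and 12.5 ± 1.90 in BKO at D0, 17.6 ± 1.66 and 10.9 ± 0.677 at D1, and 15.2 ± 1.86 and 10.4 ± 1.08 at D2. The BKO libraries lay below the CON libraries on each day, while the adjusted p (limma) was 0.12, 0.0586 and 0.267. B cell markers summed to between 2157 and 5892 FPKM per library, and the 14 T cell markers to between 11.6 and 42.8 FPKM. Lck had the highest mean of these T cell markers in every group.

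The promoters of 4 receptors that passed the test over time are shown first, because 2 of them (Tnfrsf13c and Fas) rose at D2 and the other two moved in opposite directions at D1, from levels above 9 FPKM at D0. Each is the run of 250 bases just before the start that the RefSeq promoter table (GRCm38.p6) gives for the gene, read 5′ to 3′ on the gene's own strand, and the capitals mark CG dinucleotides, the sites at which DNA methylation is usual in mammals. The windows are chr11:61126505-61126754 (plus strand) for Tnfrsf13b, chr4:156026072-156026321 (plus strand) for Tnfrsf18, chr15:82224381-82224630 (minus strand) for Tnfrsf13c and chr19:34290409-34290658 (plus strand) for Fas. The start used for a window can differ from the first base of the gene coordinates given below. The Tnfrsf13b window lies wholly inside the gene as given, from 61126283, and the Fas window ends just inside it, from 34290647.
Tnfrsf13b: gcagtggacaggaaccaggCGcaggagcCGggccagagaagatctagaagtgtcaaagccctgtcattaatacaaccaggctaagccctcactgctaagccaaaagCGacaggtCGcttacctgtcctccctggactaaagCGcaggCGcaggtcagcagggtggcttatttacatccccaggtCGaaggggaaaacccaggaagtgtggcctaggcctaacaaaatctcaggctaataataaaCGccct
Tnfrsf18: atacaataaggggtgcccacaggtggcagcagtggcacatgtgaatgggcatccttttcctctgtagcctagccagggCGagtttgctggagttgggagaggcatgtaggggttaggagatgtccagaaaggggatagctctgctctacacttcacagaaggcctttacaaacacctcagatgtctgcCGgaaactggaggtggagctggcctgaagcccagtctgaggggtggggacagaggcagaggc
Tnfrsf13c: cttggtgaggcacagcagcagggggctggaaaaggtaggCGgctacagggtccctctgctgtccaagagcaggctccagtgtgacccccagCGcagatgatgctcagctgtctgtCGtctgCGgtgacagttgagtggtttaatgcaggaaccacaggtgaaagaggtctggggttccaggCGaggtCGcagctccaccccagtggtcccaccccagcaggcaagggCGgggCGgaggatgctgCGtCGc
Fas: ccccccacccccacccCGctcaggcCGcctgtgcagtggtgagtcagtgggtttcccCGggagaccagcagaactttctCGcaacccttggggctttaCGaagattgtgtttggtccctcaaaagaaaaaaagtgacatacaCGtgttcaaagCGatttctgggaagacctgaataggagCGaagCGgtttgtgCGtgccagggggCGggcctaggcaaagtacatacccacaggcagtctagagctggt

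These windows hold 8, 2, 10 and 11 CG dinucleotides, in the order shown. Their ratio of observed to expected CG was 0.44, 0.11, 0.41 and 0.55, and in all 10 windows found for 9 of the 10 receptors it lay between 0.11 and 0.55. The windows of Tnfrsf17 and of the second start of Tnfrsf9 also lie within the gene coordinates, and that of Cd27 lies there in part. Of 32851 promoter windows in the table, 34% had a ratio of at least 0.6. The NF-kB consensus, searched on both strands, matched at 2 overlapping positions before the second start of Tnfrsf9 (bases 43 to 33 before it) and in none of the other windows, while 3.9% of all windows held a match. GGAAG, the core letters of ETS family sites, was found on either strand in the windows of Tnfrsf13b, Cd27, Fas, Tnfrsf1a and Tnfrsf1b, and in 64.1% of all windows. TATAAA was found for Tnfrsf17 and in 12.4% of all windows, and CCAAT at the first start of Tnfrsf9 and in 33.8%. A match describes letters in these windows and does not show a bound site.

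Culture with LPS changed the make-up of the receptors in both genotypes. From D0 to D1, Tnfrsf13b rose 3.57-fold in CON and 3.84-fold in BKO, whereas Tnfrsf18 and Cd27 fell in both. From D1 to D2, Tnfrsf13c (1.69-fold and 1.91-fold) and Fas (1.61-fold and 2.08-fold) rose, Tnfrsf18 partly came back, and Cd40 and Tnfrsf13b fell a little. None of the 10 receptors differed between CON and BKO at the threshold on any day.

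Counted over the list, CON at D1 versus D0 had 1 receptor higher and 2 lower of 10, while 26.7% of the 15531 genes tested were called higher and 30.7% lower. BKO had 1 higher and 4 lower (27.5% and 32.3% of 15551 genes). At D2 versus D1, CON had 4 higher and 2 lower (20.1% and 24.8% of 15178 genes), and BKO 3 higher and 2 lower (21.7% and 24% of 15253 genes). At D2 versus D0, CON had 2 higher and 2 lower (26.5% and 30.3% of 15584 genes), and BKO 3 higher and 5 lower (27% and 30.7% of 15695 genes). These counts are over 10 genes and are not read against the background, so that the results lie in which receptors moved. The median log2 fold change of the 10 was -0.12 at D1 versus D0 and 0.07 at D2 versus D1 in CON, and -0.16 and 0.01 in BKO, where all genes had medians between -0.02 and 0.00. Leaving out CON library 1 of D0 raised the CON count at D1 versus D0 from 3 to 6 (Cd40, Tnfrsf1b and Tnfrsf9 added). At D2 versus D1 in CON the count fell from 6 to 3 without CON library 3 of D1 or CON library 2 of D2, since the calls of Tnfrsf13b, Tnfrsf17 and Tnfrsf18 were lost. At D2 versus D0 in BKO it fell from 8 to 5 without BKO library 2 of D2.

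**Figure D1:**
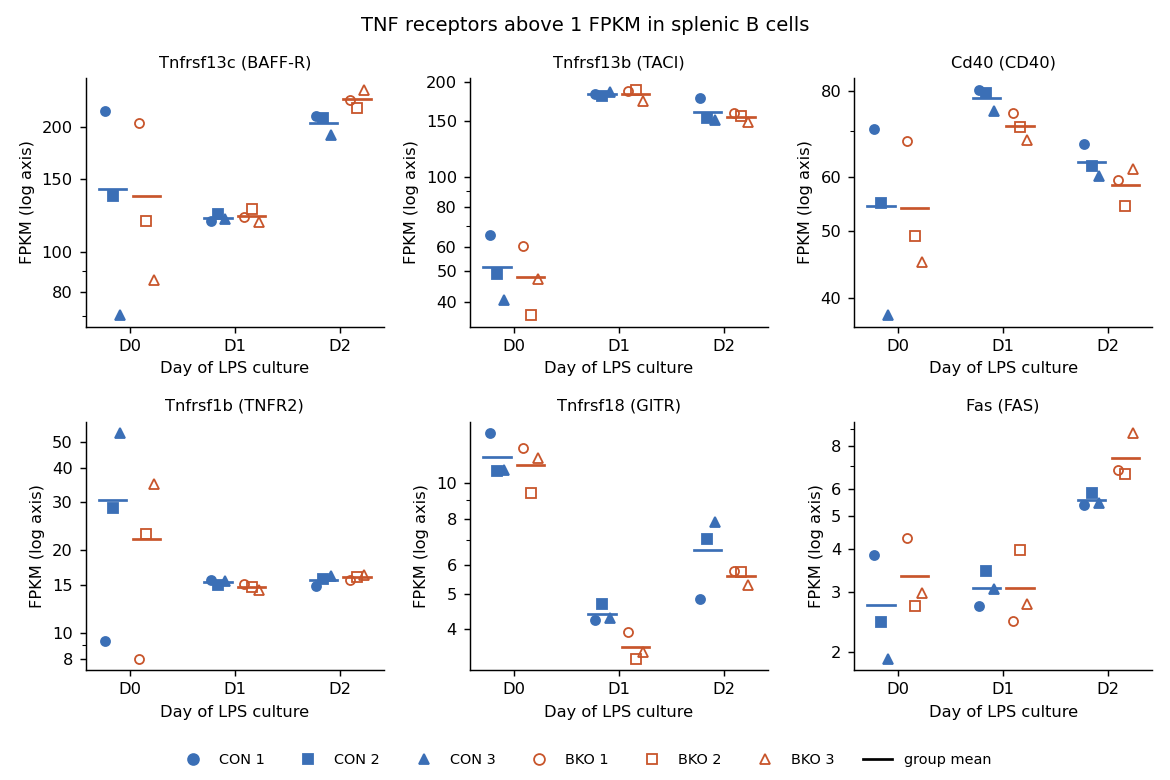
FPKM (log axis) of 6 receptors in each library at D0, D1 and D2 of LPS culture, with filled blue symbols for CON, open orange symbols for BKO, the symbol shape for the library number and a line for the group mean. Tnfrsf13b lies above 140 FPKM in all libraries of D1 and D2 and under 70 in all of D0, and the D0 libraries of Tnfrsf13c and Tnfrsf1b spread far more than those of later days.

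Among the receptors for BAFF and APRIL, Tnfrsf13c (gene ID 72049; GRCm38 chromosome 15, 82221742 to 82224380, minus strand) encodes BAFF-R, the survival receptor of resting B cells. At D0 it was at 218, 136 and 70.2 FPKM in CON libraries 1, 2 and 3, and at 204, 118 and 85.2 in BKO libraries 1, 2 and 3. At D1 it was at 118.5, 123 and 120.1 in CON and 121, 127 and 118 in BKO. At D2 it was at 212, 210.2 and 191 in CON and 232, 222 and 246 in BKO. The D1 libraries lay within a narrow band inside the range of D0, and every D2 library lay above every D1 library.

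The rise of Tnfrsf13c from D1 to D2 was 0.76 in CON (SE 0.047, adjusted p = 6.46e-05, limma) and 0.93 in BKO (SE 0.049, adjusted p = 2.22e-05). In CON it did not pass when all 18 libraries shared 1 estimate of the spread (adjusted p = 0.088). D1 did not differ from D0 at the threshold in CON (-0.08, SE 0.381, adjusted p = 0.861) or BKO (-0.06, SE 0.295, adjusted p = 0.866), and the D0 libraries spread 3.11-fold and 2.4-fold. D2 versus D0 gave 0.87 in BKO (SE 0.293, adjusted p = 0.0414) and 0.67 in CON (SE 0.377, adjusted p = 0.179). These D2 versus D0 results depended on single libraries. The BKO call ended in 5 of the 6 fits that left out 1 library (all but BKO library 1 of D0), with adjusted p up to 0.118, and in CON the change became 1.05 (adjusted p = 0.0217) without CON library 1 of D0.

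Tnfrsf13b (57916; chromosome 11, 61126283 to 61153170, plus strand) encodes TACI, which binds both BAFF and APRIL and is known for its part in T-independent antibody responses. The D0 libraries had 65.1, 49.2 and 40.55 FPKM in CON and 60.3, 36.3 and 47.3 in BKO. The D1 libraries had 184, 181 and 186 in CON and 187, 189 and 174 in BKO. The D2 libraries had 178, 154 and 151 in CON and 159, 156 and 149 in BKO. All 12 cultured libraries lay above all 6 libraries of D0, the lowest of them at 149 FPKM and the highest of D0 at 65.1.

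The rise from D0 to D1 was 1.84 in CON (SE 0.162, adjusted p = 0.000156, limma) and 1.94 in BKO (SE 0.173, adjusted p = 0.000123), and at D2 versus D0 1.64 and 1.70 remained (adjusted p = 0.000291 and 0.000223). The fall from D1 to D2 was small, by 0.19 in CON (SE 0.063, adjusted p = 0.0432) and by 0.25 in BKO (SE 0.045, adjusted p = 0.00399). In CON this fall lost its call in 5 of 6 fits that left out 1 library (all but CON library 1 of D2, adjusted p between 0.0917 and 0.127), and with the replicate block (adjusted p = 0.06). It was lost with the shared spread of all 18 libraries in both CON (adjusted p = 0.417) and BKO (0.272).

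Tnfrsf17 (21935; chromosome 16, 11313232 to 11320074) encodes BCMA, the APRIL receptor of long-lived plasma cells, and it was close to 0. Before culture it was at 0.40, 0.08 and 0.75 FPKM in CON and 0.16, 0.33 and 0.65 in BKO. On the first day of culture it was at 0, 0.07 and 0 in CON and 0.07, 0 and 0.07 in BKO. On the last day it was at 0.07, 0.14 and 0.22 in CON and 0.07 in each BKO library. All 12 values of D1 and D2 were multiples of 0.070 FPKM within 0.01, none above 3 such steps. The test called it lower in BKO at D1 and D2 versus D0 (adjusted p = 0.0336 and 0.0406, limma) and higher in CON at D2 versus D1 (adjusted p = 0.0437), where the groups overlapped. The last call rests on values of 0 to 3 such steps, and it was lost without CON library 1 or 3 of D1 or CON library 2 or 3 of D2. The BKO calls were lost without BKO library 2 of D0 or any 1 of the later BKO libraries compared. The 5 plasma cell markers were summed over the same days. In CON they came to 250.8 to 420.1 FPKM at D0, 138 to 154 at D1 and 194 to 316 at D2. In BKO the sums were 242 to 419.8, 135 to 139 and 229 to 250.2. The members went both ways: at D1 versus D0, 2 were called higher and 3 lower in each genotype. Mean Irf4 fell from 214 to 64.1 FPKM in CON, Jchain from 89.55 to 17.8 and Sdc1 from 5.69 to 1.70. Prdm1 rose from 2.74 to 7.01 and Xbp1 from 44.3 to 56.3. At D2 versus D1, 4 were higher and 0 lower in CON, and 3 and 1 in BKO. The part of these markers in the levels of Tnfrsf17 was not tested.

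Cd40 (21939; chromosome 2, 165055614 to 165071654) encodes the receptor through which CD40 ligand of T cells drives B cell proliferation and class switching. At D0 it was at 70.5, 54.9 and 37.7 FPKM in CON and 67.8, 49.2 and 45.1 in BKO. At D1 it was at 80.4, 79.5 and 74.8 in CON and 74.4, 71.0 and 67.98 in BKO. At D2 it was at 67.1, 62.1 and 60.1 in CON and 59.3, 54.3 and 61.6 in BKO. In each genotype all D1 libraries lay above all libraries of D0 and of D2, by little in the case of library 1 of D0.

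The fall of Cd40 from D1 to D2 passed the test, by 0.31 in CON (SE 0.049, adjusted p = 0.00257, limma) and by 0.28 in BKO (SE 0.056, adjusted p = 0.00584), but not with the shared spread of all 18 libraries (adjusted p = 0.209 and 0.243). At D1 versus D0 the difference was 0.56 in CON (SE 0.213, 95% interval 0.04 to 1.08, adjusted p = 0.0636) and 0.41 in BKO (SE 0.149, 95% interval 0.05 to 0.77, adjusted p = 0.0521). It passed without library 1 of D0, at 0.77 in CON (adjusted p = 0.0104) and 0.58 in BKO (adjusted p = 0.000657). The replicate block called it too (adjusted p = 0.0409 and 0.0313). At D2 versus D0 it did not pass in CON (0.26, adjusted p = 0.358) or BKO (0.13, adjusted p = 0.504), and without BKO library 1 of D0 it was 0.30 in BKO (adjusted p = 0.0185).

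Cd27, Tnfrsf18 and Tnfrsf9 are costimulatory receptors that are best known from T cells. Cd27 (21940; chromosome 6, 125232620 to 125237136), the receptor of CD70, was at 1.38, 1.38 and 1.59 FPKM in CON and 1.28, 1.2 and 1.83 in BKO at D0. The D1 libraries had 0.34, 0.16 and 0.22 in CON and 0.13, 0.10 and 0.17 in BKO. The D2 libraries had 0, 0.22 and 0.32 in CON and 0.13, 0.11 and 0.13 in BKO. It was low throughout, and all 12 cultured libraries lay below all 6 of D0.

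On the log2 scale Cd27 fell by 0.98 from D0 to D1 in CON (SE 0.072, adjusted p = 7.06e-05, limma) and by 1.10 in BKO (SE 0.10, adjusted p = 0.000139), and the ratio of the mean FPKM was 0.166 and 0.0928. D2 did not differ from D1 at the threshold (adjusted p = 0.598 in CON and 0.748 in BKO). Under a pseudocount of 0.1 the fall from D0 to D1 was larger, at -2.22 in CON and -2.71 in BKO.

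Tnfrsf18 (21936; chromosome 4, 156026322 to 156028894, plus strand) encodes GITR, a costimulatory receptor high on regulatory T cells. The D0 libraries had 13.7, 10.8 and 10.9 FPKM in CON and 12.5, 9.43 and 11.7 in BKO. On the first day of culture it was at 4.25, 4.69 and 4.30 in CON and 3.93, 3.33 and 3.47 in BKO. On the last day it was at 4.85, 7.06 and 7.83 in CON and 5.77, 5.73 and 5.29 in BKO. The order of the days was the same in both genotypes, with D0 highest, D1 lowest and D2 between them, and no libraries of neighbouring days overlapped within a genotype.

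Tnfrsf18 fell by 1.23 from D0 to D1 in CON (SE 0.117, adjusted p = 0.00021, limma) and by 1.41 in BKO (SE 0.124, adjusted p = 0.000118). It then rose by 0.47 in CON (SE 0.151, adjusted p = 0.0432) and 0.53 in BKO (SE 0.078, adjusted p = 0.00152), and at D2 was still below D0 (-0.77, adjusted p = 0.011, and -0.88, adjusted p = 0.000906). The rise in CON lost its call in 5 of 6 fits that left out 1 library (adjusted p between 0.0828 and 0.128), and kept it only without CON library 1 of D2, at 0.64 (adjusted p = 0.00204).

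From D0 to D1, T cell and NK cell markers moved in the same direction as Cd27 and Tnfrsf18, whereas from D1 to D2 most of them did not follow the rise of Tnfrsf18. At D1 in CON all 14 T cell markers and 5 of 6 NK cell markers passed as lower versus D0, and in BKO all 14 and all 6. The T cell list summed to 35.0 to 42.8 FPKM in CON at D0, 14.4 to 17.2 at D1 and 20.3 to 22.6 at D2, and to 37.5 to 40.7, 11.6 to 13.3 and 16.2 to 18.9 in BKO. The higher sum at D2 came from Ctla4, an inhibitory receptor of activated T cells, which rose from 0.60 ± 0.167 FPKM at D1 to 6.48 ± 1.53 at D2 in CON (adjusted p = 8.86e-05, limma) and from 0.65 ± 0.208 to 6.42 ± 0.634 in BKO (adjusted p = 2.21e-05). From D1 to D2 the T cell list otherwise had Cd3d called lower in CON, Cd3d and Cd3g called lower in BKO, and 11 markers not called in each, with a median of 0.00 in CON and -0.05 in BKO. The NK cell list summed to 8.64 to 14.9, 0.60 to 0.73 and 0.98 to 1.49 in CON, and to 6.55 to 18.1, 0.59 to 0.66 and 0.90 to 1.24 in BKO. Of the defining markers, Cd3e was at 0.623 ± 0.458 FPKM in CON at D0 and 0.0867 ± 0.0777 at D1, Icos was at 0 in all CON libraries of D1 and D2, and Ncr1 was at 0 in all CON libraries of D1 and D2. The part of other cells in the levels of Cd27 and Tnfrsf18 was not tested, and in bulk RNA fewer cells of a type and less RNA per cell cannot be told apart. B cell markers fell as well, with 6 of 8 lower in CON and 7 of 8 in BKO at D1 versus D0.

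Tnfrsf9 (21942; chromosome 4, 150920155 to 150946104) encodes 4-1BB, the receptor of the ligand encoded by Tnfsf9. It was between 0 and 0.10 FPKM in all 18 libraries, with 0, 0.10 and 0.10 in CON and 0.09, 0.07 and 0.06 in BKO at D0. At D1 it was at 0, 0.05 and 0.03 in CON and 0.03, 0.03 and 0.08 in BKO, and at D2 at 0.08, 0.06 and 0.09 in CON and 0.03, 0 and 0.03 in BKO. Only D2 versus D0 in BKO was called, as lower (adjusted p = 0.0239, limma), and that call was lost without BKO library 1 of D0 or BKO library 2 of D2.

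**Figure D2:**
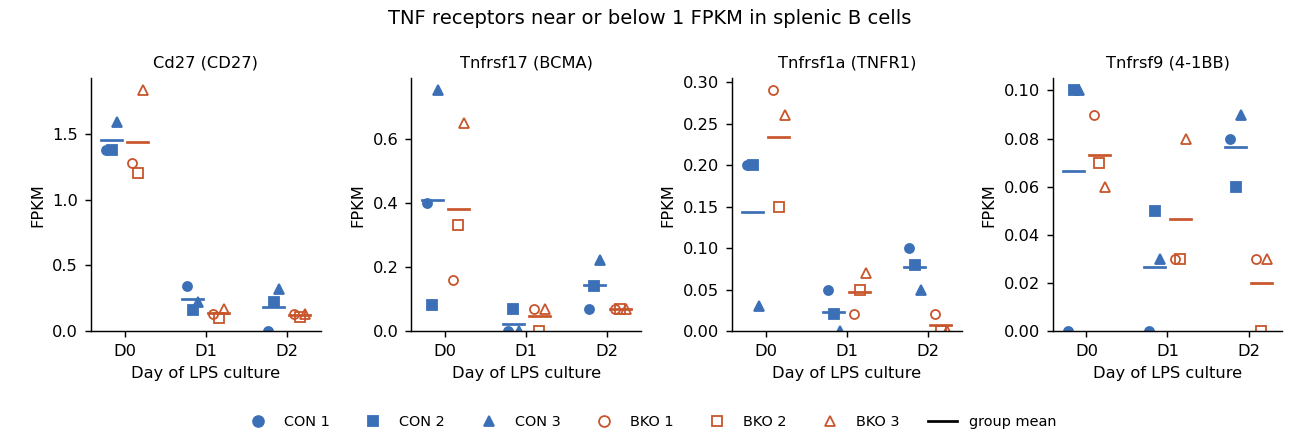
FPKM (linear axis from 0) of the 4 receptors near or below 1 FPKM in each library at D0, D1 and D2, with filled blue symbols for CON, open orange symbols for BKO and a line for the group mean. Cd27 is above 1 FPKM in all 6 libraries of D0 and at or under 0.34 in all 12 later ones, and Tnfrsf9 does not exceed 0.10 in any library.

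Fas, Tnfrsf1a and Tnfrsf1b are the receptors of FAS ligand and of TNF. Fas (14102; chromosome 19, 34290647 to 34327775, plus strand), the death receptor that rises on activated and germinal center B cells, was at 3.86, 2.45 and 1.92 FPKM in CON and 4.30, 2.73 and 2.99 in BKO at D0. The D1 libraries had 2.73, 3.45 and 3.07 in CON and 2.47, 3.99 and 2.76 in BKO. At D2 it was at 5.38, 5.85 and 5.47 in CON and 6.81, 6.65 and 8.74 in BKO. All 6 libraries of D2 lay above all 12 earlier ones, and D0 and D1 overlapped.

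The rise of Fas from D1 to D2 was 0.69 in CON (SE 0.082, adjusted p = 0.000687, limma) and 1.05 in BKO (SE 0.16, adjusted p = 0.00176), and it passed in every alternative run (adjusted p at most 0.0105 and 0.0106). D2 versus D0 gave 0.84 in CON (SE 0.195, adjusted p = 0.00978) and 0.96 in BKO (SE 0.175, adjusted p = 0.00321). D1 versus D0 did not pass (0.16, adjusted p = 0.541, and -0.09, adjusted p = 0.705).

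Tnfrsf1a (21937; chromosome 6, 125349723 to 125362483) encodes TNFR1, the TNF receptor with a death domain, and it was at or under 0.29 FPKM in all libraries. Before culture it was at 0.20, 0.20 and 0.03 FPKM in CON and 0.29, 0.15 and 0.26 in BKO. On the first day of culture it was at 0.05, 0.02 and 0 in CON and 0.02, 0.05 and 0.07 in BKO. The D2 libraries had 0.10, 0.08 and 0.05 in CON and 0.02, 0 and 0 in BKO. It was called lower in BKO at D1 and D2 versus D0 (adjusted p = 0.00496 and 0.00142, limma) and did not pass in CON (0.0776 and 0.311), except without CON library 3 of D0, when both CON comparisons were called.

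Tnfrsf1b (21938; chromosome 4, 145212368 to 145246870, minus strand) encodes TNFR2, which lacks a death domain and signals through TRAF2. At D0 it was at 9.30, 28.6 and 53.9 FPKM in CON and 8.04, 23.0 and 34.9 in BKO. At D1 it was at 15.6, 14.9 and 15.45 in CON and 15.1, 14.7 and 14.3 in BKO. On the last day it was at 14.9, 15.7 and 16.1 in CON and 15.6, 16.0 and 16.3 in BKO. The D0 libraries spread 5.79-fold in CON and 4.34-fold in BKO, whereas no group of D1 or D2 spread more than 1.08-fold.

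No change of Tnfrsf1b over time was called (D1 versus D0 -0.65, SE 0.570, adjusted p = 0.379 in CON, and -0.34, SE 0.475, adjusted p = 0.572 in BKO, limma), and the D0 value depended on the library. Without library 1 of D0 the difference was -1.30 in CON (adjusted p = 0.00881) and -0.91 in BKO (adjusted p = 0.00705), and D2 versus D0 was -1.28 (adjusted p = 0.00844) and -0.79 (adjusted p = 0.0114). Without library 3 of D0 in BKO the difference was 0.09 at D1 versus D0. The small rise in BKO from D1 to D2 (0.11, adjusted p = 0.0701) passed with median-ratio scaling (0.15, adjusted p = 0.0305).

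The D0 libraries of both genotypes followed the library number. Tnfrsf13c and Cd40 were highest in library 1 and lowest in library 3 in CON and in BKO, and Tnfrsf1b was in the reverse order in both. Over 9997 genes, the deviations from the group mean at D0 correlated between CON and BKO libraries of the same number with r = 0.85, 0.47 and 0.79 for numbers 1, 2 and 3, a description across genes, which are not independent. Egr1, an immediate early gene chosen after its values were seen, followed the same order at D0, with 412, 153.5 and 69.4 FPKM in CON and 239, 137 and 93.2 in BKO. Cd83, an activation marker chosen in the same way, was at 172, 682 and 563 and at 197, 635 and 595. What a library number marks (an animal, a sort or a day) is not given in the labels, and its part in the D0 levels was not tested. The median SD of genes between libraries was 0.17 and 0.16 at D0 on the log2 scale in CON and BKO, against 0.0563 and 0.0545 at D1 and 0.0744 and 0.0852 at D2.

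**Figure D3:**
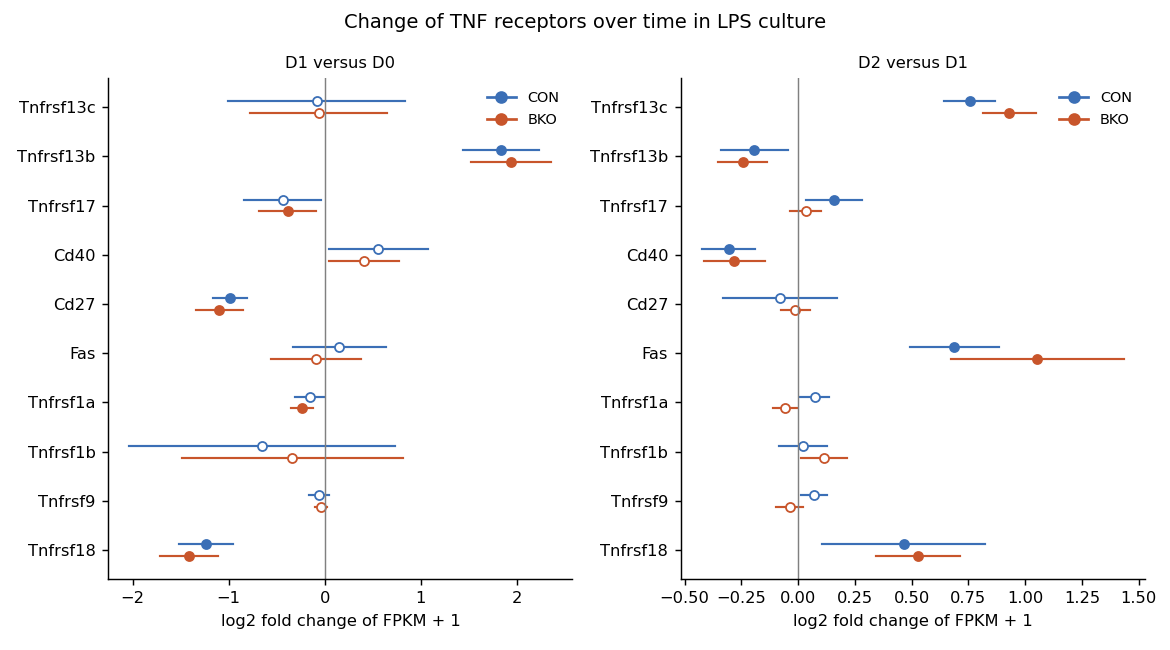
Log2 fold change of FPKM + 1 for the 10 receptors at D1 versus D0 (left) and D2 versus D1 (right), in CON (blue) and BKO (orange), with 95% intervals; filled points have an adjusted p under 0.05. At D1 Tnfrsf13b lies farthest to the right, Cd40 lies to the right with open points, Cd27 and Tnfrsf18 lie to the left with filled points, and the intervals of Tnfrsf13c and Tnfrsf1b at D1 are the widest.

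The order of the levels changed with the day. At D0 Tnfrsf13c was first with a mean of 141.5 ± 74.0 FPKM in CON (136 ± 61.5 in BKO), followed by Cd40 (54.4 ± 16.4), Tnfrsf13b (51.6 ± 12.5), Tnfrsf1b (30.6 ± 22.4), Tnfrsf18 (11.8 ± 1.68) and Fas (2.74 ± 1.00). The ranges of neighbours overlapped for the first 5 of these in CON, and Tnfrsf18, Fas and Cd27 were separate from the next below. At D1 Tnfrsf13b was first with 184 ± 2.55 FPKM in CON (183.5 ± 8.01 in BKO), ahead of Tnfrsf13c with 121 ± 2.43 (122 ± 4.64), Cd40 with 78.2 ± 3.03 (71.1 ± 3.21) and Tnfrsf1b with 15.3 ± 0.348 (14.7 ± 0.426), and the first 4 were separate from each other in both genotypes. At D2 Tnfrsf13c was first again with 204.5 ± 11.8 in CON (233 ± 11.8), ahead of Tnfrsf13b with 161 ± 14.6 (155 ± 5.16), also without overlap. The place of Fas and Tnfrsf18 differed: at D2 Fas lay above Tnfrsf18 without overlap in BKO, while in CON their ranges overlapped. Tnfrsf13c at D0 was above 97.4% of the genes in CON, and Tnfrsf1a and Tnfrsf9 were above 28.4% and 23.3%.

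The comparison of BKO with CON asks whether loss of Zbtb24 alters these receptors before or during LPS activation. No receptor was called at D0, D1 or D2, where 0%, 0.0993% and 0.046% of 15641, 15104 and 15210 genes were called (0, 15 and 7 genes; 313, 2463 and 1172 genes had an unadjusted p under 0.05). The background counts depend on the setting: at D1, 388 genes were called when the test was limited to a mean of 1 FPKM or more and 5 to 8 when 1 library was left out, and at D2, 29 and 0 to 6. Among the 10 receptors, 0, 2 and 4 had an unadjusted p under 0.05. The same receptors were those with groups that did not overlap, 0, 2 and 4 of 10, and 3.87%, 20.1% and 11.1% of all genes did not overlap on those days. In all 84 fits of genotype differences and of their changes over time under other settings or without 1 library, no receptor was called.

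At D1 the 2 receptors were Cd40 and Tnfrsf18, both lower in BKO. The 3 BKO libraries of Cd40 (67.98 to 74.4 FPKM) lay below the 3 of CON (74.8 to 80.4), a difference of -0.14 (SE 0.042, 95% interval -0.24 to -0.04, adjusted p = 0.191, limma). For Tnfrsf18, BKO (3.33 to 3.93 FPKM) lay below CON (4.25 to 4.69), by -0.24 (SE 0.071, 95% interval -0.41 to -0.07, adjusted p = 0.174). The intervals of both are narrower than those of D0 and neither difference passed.

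At D2 the 4 were Tnfrsf13c and Fas, higher in BKO, and Tnfrsf1a and Tnfrsf9, lower. Tnfrsf13c was at 233 ± 11.8 FPKM in BKO and 204.5 ± 11.8 in CON (0.19, SE 0.059, 95% interval 0.05 to 0.33, adjusted p = 0.467, limma). Fas was at 7.40 ± 1.16 and 5.57 ± 0.249 (0.35, SE 0.106, 95% interval 0.10 to 0.60, adjusted p = 0.463). Tnfrsf1a (adjusted p = 0.338) and Tnfrsf9 (adjusted p = 0.399) were at or under 0.10 FPKM in both genotypes.

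For the other receptors at D1 and D2 the intervals were narrow where the level was high. Tnfrsf13b differed by 0.00 at D1 (95% interval -0.09 to 0.08) and by -0.05 at D2 (-0.21 to 0.11), and Tnfrsf1b by -0.06 (-0.14 to 0.03) and 0.03 (-0.08 to 0.15). At D0 the intervals were wide, from -1.16 to 1.15 for Tnfrsf13c and from -2.14 to 1.41 for Tnfrsf1b. With the replicate block, which compares CON and BKO libraries of the same number, they narrowed to -0.29 to 0.27 for Tnfrsf13c and -0.62 to -0.11 for Tnfrsf1b. Tnfrsf1b was then lower in BKO by -0.37 (SE 0.096) and in all 3 pairs of numbers, but did not pass (unadjusted p = 0.0158, adjusted p = 0.838, limma with the block). Fas was higher in BKO in all 3 pairs, by 0.23 (SE 0.108, unadjusted p = 0.0947, adjusted p = 0.869, limma with the block). No receptor but Tnfrsf1b had an unadjusted p under 0.05 with the block at D0. The median of the 10 receptors was -0.01 at D0, -0.01 at D1 and -0.07 at D2, beside 0.00, 0.00 and -0.01 over all genes.

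**Figure D4:**
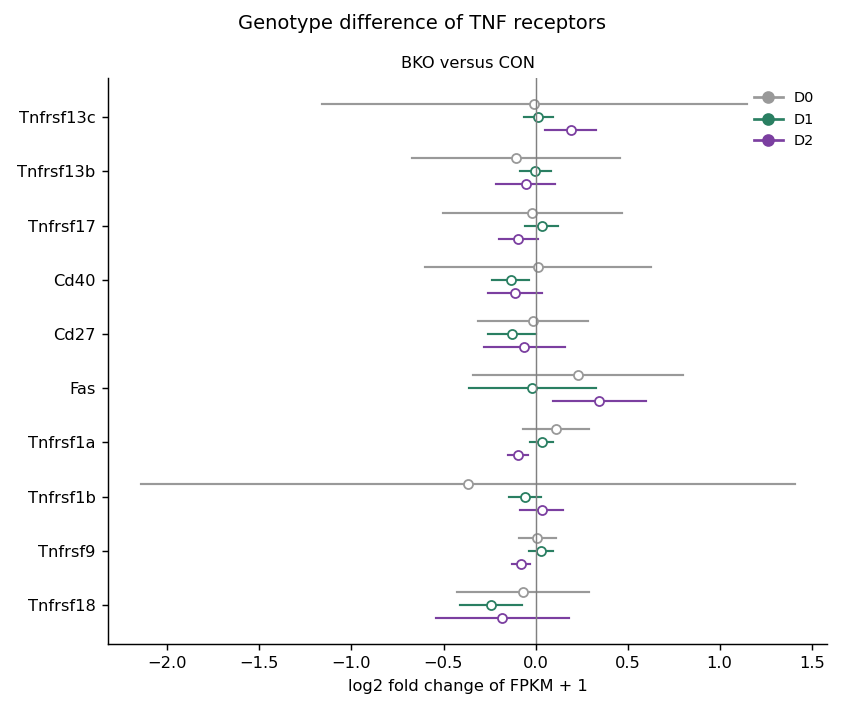
Log2 fold change of FPKM + 1 between BKO and CON for the 10 receptors at D0 (grey), D1 (green) and D2 (purple), with 95% intervals; open points have an adjusted p of at least 0.05, which holds for all 30. The widest intervals are those of Tnfrsf1b and Tnfrsf13c at D0.

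The difference of the genotypes in the change over time was tested directly. No receptor and no other gene was called for any of the 3 pairs of days (0% of 16182 genes at D1 versus D0, of 15844 at D2 versus D1 and of 16257 at D2 versus D0, limma; 467, 1158 and 422 genes had an unadjusted p under 0.05, and 0, 3 and 1 of the receptors). The rise of Tnfrsf13c from D1 to D2 was larger in BKO by 0.17 (SE 0.070, adjusted p = 0.649), and that of Fas by 0.36 (SE 0.193, adjusted p = 0.74). Neither passed. The receptors with an unadjusted p under 0.05 were Tnfrsf13c, Tnfrsf1a and Tnfrsf9 at D2 versus D1 and Tnfrsf1a at D2 versus D0, where Tnfrsf1a and Tnfrsf9 were close to 0 FPKM.

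Other genes of the pathway were described from 3 lists, of 18 further receptors (17 in the table), 17 ligands and 29 adaptors and regulators. Of the adaptors and regulators, 18 of 29 were called lower and 2 higher at D1 versus D0 in CON, where 30.7% of all genes were lower and 26.7% higher. At D2 versus D1, 18 were lower and 3 higher, beside 24.8% and 20.1% of all genes. In BKO these counts were 19 and 3, and 16 and 5, beside 32.3% lower and 27.5% higher, and 24% and 21.7%. The median of the list was -0.42 and -0.19 in CON, where all genes had -0.02 and 0.00. Of the ligands, 3 of 17 were higher and 6 lower at D1 versus D0 in CON, and 3 of 15 tested moved in each direction at D2 versus D1. Further receptors had 3 of 16 tested higher and 7 lower, then 4 of 15 higher and 5 lower. With lists of this size nothing is read from the ligand and receptor counts against those shares of all genes. No gene of the 3 lists was called between BKO and CON on any day, and 0 of 62, 14 of 61 and 10 of 61 tested had an unadjusted p under 0.05 at D0, D1 and D2, beside 2%, 16.3% and 7.71% of all genes.

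Among the further receptors, Ngfr (p75, the neurotrophin receptor) fell from 3.93 ± 0.888 FPKM to 0.403 ± 0.127 at D1 in CON (-1.80, SE 0.148, adjusted p = 0.000115, limma). Tnfrsf12a (FN14, the TWEAK receptor) fell from 7.08 ± 0.298 to 1.45 ± 0.560 (-1.74, SE 0.173, adjusted p = 0.000253). Tnfrsf8 (CD30, known from activated lymphocytes) rose from 0.353 ± 0.0577 to 2.33 ± 0.499 (1.29, SE 0.12, adjusted p = 0.000196). From D1 to D2, Tnfrsf21 (DR6) fell from 3.19 ± 0.191 to 1.14 ± 0.0723 (adjusted p = 7.81e-05), Tnfrsf19 (TROY) from 1.64 ± 0.350 to 0.657 ± 0.146 (adjusted p = 0.00264) and Tnfrsf8 to 1.12 ± 0.435 (adjusted p = 0.0174), the last lost in 4 of 6 fits without 1 CON library (library 2 or 3 of D1, or 1 or 2 of D2; adjusted p between 0.0583 and 0.065). BKO moved in the same direction in each of these 6 changes with adjusted p under 0.05.

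Of the ligands, Ltb (lymphotoxin beta, part of the membrane lymphotoxin trimer) was the most abundant of those that moved. It fell from 377 ± 164 FPKM at D0 to 52.1 ± 2.86 at D1 in CON (-2.73, SE 0.326, adjusted p = 0.000569, limma) and came back to 143 ± 6.41 at D2 (1.44, SE 0.051, adjusted p = 1.43e-05). Lta (lymphotoxin alpha) fell from 22.0 ± 11.7 to 5.89 ± 1.00 (adjusted p = 0.00923). Tnf went the other way, from 4.37 ± 1.68 to 15.5 ± 2.08 (1.66, SE 0.227, adjusted p = 0.00103) and then to 9.88 ± 1.03 (-0.60, adjusted p = 0.00406, and 0.0764 with the shared spread of all 18 libraries). Tnfsf9, the ligand of 4-1BB, rose from 1.75 ± 0.347 at D1 to 4.19 ± 1.10 at D2 (0.90, SE 0.178, adjusted p = 0.00608). In BKO the means of Ltb were 373, 34.6 and 154 FPKM at D0, D1 and D2. Those of Tnf were 3.92, 12.85 and 9.75, and Lta went from 22.0 at D0 to 4.67 at D1. Tnfsf9 in BKO was at 1.11 to 2.07 at D1 and 3.87 to 3.93 at D2. At D1 the BKO libraries of Ltb (31.0 to 38.4 FPKM) lay below those of CON (48.8 to 53.75), a difference that was not called. The ligands of the main B cell receptors were near 0: Tnfsf13b (BAFF) was at 0.213 ± 0.0208 FPKM in CON at D0, Tnfsf13 (APRIL) at 0.0267 ± 0.0231 and Cd40lg at 0.0833 ± 0.0577, and Cd40lg was listed at 0 in all CON libraries of D1 and D2.

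Among adaptors, Traf1, which binds TNFR2 and CD40 together with TRAF2, rose from 13.7 ± 0.463 FPKM at D0 to 55.4 ± 1.87 at D1 in CON (1.94, SE 0.057, adjusted p = 5.88e-06, limma) and fell to 36.1 ± 2.18 at D2 (-0.61, adjusted p = 0.000158). Map3k14, the kinase NIK of the noncanonical NF-kB pathway, fell from 28.8 ± 5.44 to 8.83 ± 0.595 at D1 (-1.58, SE 0.145, adjusted p = 0.000182). Traf3, which keeps NIK low in resting B cells, fell from 17.98 ± 0.15 at D1 to 11.8 ± 0.547 at D2 (-0.57, SE 0.044, adjusted p = 0.000123). Cflar (c-FLIP, an inhibitor of caspase-8) fell from 20.5 ± 0.733 to 12.3 ± 1.17 over the same step (-0.69, adjusted p = 0.00031). Tnfaip3 (A20) was at 112.5 ± 59.5 at D0 and 35.9 ± 2.07 at D1 (-1.43, SE 0.465, adjusted p = 0.0378), a call that was kept only without CON library 1 of D0 among the fits that left out 1 library, with adjusted p up to 0.124 in the others, and that was lost with median-ratio scaling (adjusted p = 0.0553). In BKO, Traf1, Map3k14 and Tnfaip3 at D1 and Traf1, Traf3 and Cflar at D2 moved in the same direction, each with an adjusted p under 0.05.

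**Figure D5:**
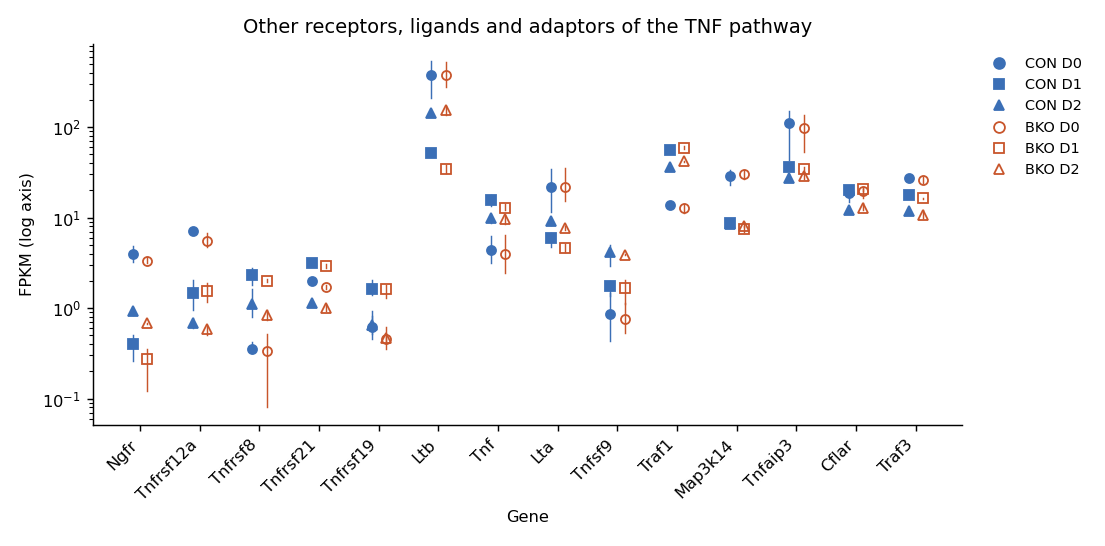
FPKM (log axis) of the named further receptors, ligands and adaptors in CON (filled blue) and BKO (open orange) at D0 (circles), D1 (squares) and D2 (triangles); symbols are group means and vertical lines run from the lowest to the highest library. Traf1 is lowest and Ltb highest at D0 in both genotypes. The CON and BKO symbols of a day lie close together for most genes, and Ltb at D1 is lower in BKO without overlap.

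The genes whose pattern over the 18 libraries was most like a receptor's were found by Pearson's r of log2(FPKM + 1), among 9987 genes whose mean over the libraries reached 1 FPKM. The libraries share days and D0 numbers, so these values describe likeness only. Tnfrsf13b was most like Cs (citrate synthase, 0.99), Tomm22 (mitochondrial import, 0.99) and Atpaf1 (ATP synthase assembly, 0.99). Tnfrsf18 was most like Stxbp2, Stat5b and Tmem63a (each 0.98), and Tnfrsf13c like Btbd1 (0.97), Gimap7 (0.96) and Fam78a (0.95). For Cd40 the nearest were Ccdc85b (0.97), Icam1 (0.96) and Cdipt (0.96), for Tnfrsf1b Hnrnph2 (0.96), Tiparp (0.95) and Taf5 (0.93), and for Fas Rfxap (0.94), Abhd8 (0.94) and Sting1 (0.93).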

How the data were processed

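The 18 libraries were made from total RNA of sorted splenic B cells, 3 per genotype and day, and by the methods each came from a single mouse. Whether CON 1 of D0, D1 and D2 share a mouse is not given. The authors aligned reads to mm10 (GRCm38) and deposited FPKM values per gene, rounded to 2 decimals, with Bowtie2, Cufflinks and RSEM by the methods (BWA and DESeq2 are also named in the submitters' processing notes, and versions are not given in the sources used here). FPKM are not counts, and the depth in fragments is unknown, so that no counting interval is given. Of 16545 gene IDs, 16512 matched a symbol in RefSeq (GRCm38.p6), which also gave coordinates and promoters.

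Differences were computed with limma 3.58.1 in R 4.3.3 (functions lmFit and eBayes, trend on), applied to log2(FPKM + 1), over genes above 0 FPKM in any library compared, in the compared groups only, two-sided, with Benjamini-Hochberg adjustment over all genes tested and a threshold of 0.05. Python 3.11.15, numpy 2.4.6, pandas 2.3.3 and matplotlib 3.10.9 served for summaries and plots. The fit was run on simulated data in which changes were planted only in genes with a mean of several FPKM or more. That run does not bear on the receptors at low levels, and its outcome is not given here. The receptors and lists were chosen with earlier results of these data known. Named pathway genes are the up to 3 per list with the largest change in CON at D1 versus D0 and D2 versus D1, among those that passed without overlap. Marker lists were for B, T, NK, myeloid, plasma and erythroid cells. Myeloid markers summed to 6.55 to 15.0 FPKM per library and erythroid markers to 5.17 to 30.0.

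Library numbers were checked for pairing by the correlation of deviations from group means over 9997 genes. All 3 correlations exceeded 0.1 for CON with BKO at D0 (0.854, 0.468 and 0.789) and for BKO D2 with D1 (0.126, 0.183 and 0.117), and in no other comparison; the source of the pairing is the data, not the labels. Alternatives were a pseudocount of 0.1, a mean of at least 1 FPKM, median-ratio scaling, a replicate block, 1 fit of all 18 libraries, and leaving out each library.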

Additional observations from a re-analysis of the deposited data

How the results depend on the processing

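Of 654 alternative values over time, 592 kept their direction and side of the threshold, as did 234 of 262 for the genotype. For the difference in change 34 of 34 did so, counted only for Tnfrsf13c and Fas at D2 versus D1. These counts leave out Tnfrsf17, Tnfrsf1a and Tnfrsf9, which lay below 1 FPKM. Over time they include the named pathway genes, which were chosen for large changes in CON, and for the genotype they include Zbtb24. All genes called between genotypes numbered 2 at D0, 388 at D1 and 29 at D2 with a mean of at least 1 FPKM, 23 at D0 and 11 at D2 with 1 fit of all 18 libraries, and 46 at D1 with a pseudocount of 0.1. With the replicate block they numbered 5 at D1 and 3 at D2. Leaving out 1 library gave 0 to 1, 5 to 8 and 0 to 6 on the 3 days. For the difference in change at D2 versus D0, median-ratio scaling called 1 gene and the fit of 18 libraries 3, and leaving out 1 library gave 0 to 2, 0 to 3 and 0 to 3 genes for D1 versus D0, D2 versus D1 and D2 versus D0. No alternative called a receptor in these comparisons.

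Receptors called over time moved from 3 to 5 with the replicate block and 6 with 18 libraries (CON, D1 versus D0), from 6 to 2 (CON, D2 versus D1, 18 libraries), from 5 to 3 (BKO, D1 versus D0, mean of at least 1 FPKM, which removes low receptors), from 5 to 3 (BKO, D2 versus D1, 18 libraries) and from 8 to 4 (BKO, D2 versus D0, mean of at least 1 FPKM). The replicate block changed no call of the paired comparisons (genotype at D0, BKO at D2 versus D1) among the receptors; elsewhere the samples share only a number. Leaving out 1 library gave 3 to 6, 3 to 6 and 4 to 6 calls in CON (D1 versus D0, D2 versus D1, D2 versus D0) and 4 to 7, 5 to 6 and 5 to 9 in BKO.

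Direction turned with scaling for Tnfrsf13b between genotypes at D1 (0.011) and Tnfrsf13c in BKO at D1 versus D0 (0.010), both near 0. Without 1 library, genotype differences at D0 ran from -0.435 to 0.376 (Tnfrsf13c), -0.284 to 0.075 (Tnfrsf13b), -0.142 to 0.043 (Tnfrsf18), -0.223 to 0.220 (Cd40), -0.128 to 0.053 (Cd27) and -1.024 to 0.199 (Tnfrsf1b). At D1 they ran from -0.024 to 0.035 (Tnfrsf13b), -0.173 to 0.089 (Fas) and -0.015 to 0.039 (Tnfrsf13c), and at D2 from -0.097 to 0.019 (Tnfrsf13b) and -0.176 to 0.024 (Cd27). Over time they ran in CON from -0.512 to 0.299 (Tnfrsf13c) and -0.008 to 0.360 (Fas) at D1 versus D0, and from -0.164 to 0.036 (Cd27) and -0.003 to 0.052 (Tnfrsf1b) at D2 versus D1. In BKO they ran from -0.350 to 0.276 (Tnfrsf13c), -0.248 to 0.060 (Fas) and -0.905 to 0.090 (Tnfrsf1b) at D1 versus D0, from -0.034 to 0.011 (Cd27) at D2 versus D1, and from -0.792 to 0.203 (Tnfrsf1b) at D2 versus D0. None of these was called as reported. Zbtb24 was called lower in BKO at D0 with a mean of at least 1 FPKM (adjusted p = 0.0476, limma) and with 18 libraries (6.46e-06), and at D1 with a mean of at least 1 FPKM (0.00278) and a pseudocount of 0.1 (0.0317). Where no cause is named, the cause was not tested. Rounding to 2 decimals limits receptors below 1 FPKM.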
